A study of Rattus norvegicus with 3 samples.

Results

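The Serpina11 liver serpin locus was examined in the MBD-seq lists of newborn rat liver, as the regions of the 3 lists that overlap chromosome 6 from 127540000 to 128540000 on rn4. This window held 35 of the 95306 listed regions, of which 14 came from the comparison of MLP with C, 13 from that of MLP with MLP-F and 8 from that of MLP-F with C. The window was chosen on the measured values themselves, because it was placed around a region of the MLP vs. C list in Serpina11, at 128040534 to 128040999. That this list holds a region at Serpina11 is therefore given by the choice and is not a result. The members nearest to the edges are on the lower side an MLP vs. C region and an MLP vs. MLP-F region that both start at 127601362, with scores of 202.5 and 125, and on the higher side an MLP vs. MLP-F region at 128505136 to 128505991 with a score of 92.2. Just outside lie an MLP vs. MLP-F region at 127499789 to 127500528 with a score of 59.4 and another at 128588921 to 128590071 with a score of 262.

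All animals were male Wistar rats at 1 day of age, and the groups differ in what their dams ate: a low protein diet (MLP), a low protein diet with added folate (MLP-F) or a normal diet (C). Each group was sequenced as 1 library of pooled liver DNA. The labels count 6 animals in a pool, while the study's text gives a larger pool, and each group came from 1 litter. Diet, litter and library can therefore not be told apart, no list value has a replicate check, and differences between diets were not tested. A normal diet with added folate was not part of the design. Fragments carrying methylated CpG (a cytosine followed by a guanine) were captured with a protein domain that binds them and were sequenced. In each list a region had more captured reads in the library named first, and MACS, the program that compared the 2 libraries, gave it a p. The score is the −log10 of that p multiplied by 10. The lowest score was 50 in each list. The lists thus run down to a p cut-off, and the study kept much smaller sets of regions by FDR. For MLP-F vs. C it reported no differentially methylated region. A listed region is thus not by that a differentially methylated region of the study. Among the members, the MLP vs. C region of Serpina11 alone belongs to a set that the study kept. Other MLP vs. C members have higher scores, up to 202.5, so a place by score does not tell which regions the study kept. By the read totals that the study gives, the MLP library was the deepest and the C library the shallowest, so scores of different lists are set side by side and their difference was not tested. Captured reads do not give the methylation level of a site, and the lists give no value for a single library.

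Serpins are inhibitors of serine proteases that trap their target by a large change of shape, and some members of the family carry hormones or have other roles instead. Liver is a main source of the clade A serpins of blood plasma. In rat, as in human and mouse, many clade A genes stand side by side on one chromosome. On the RefSeq annotation of the newer assembly GRCr8, Serpina11 is number 8 in an unbroken run of 18 protein-coding Serpina genes on chromosome 6. On one side of it are Serpina1, the gene of alpha-1 antitrypsin, which inhibits neutrophil elastase, and farther on Serpina6, whose product carries glucocorticoids in plasma, and Serpina10, whose product inhibits coagulation factor Xa together with protein Z. On its other side follow Serpina9, Serpina12, which encodes the adipokine vaspin, Serpina4 (kallistatin), Serpina5 (protein C inhibitor) and the Serpina3 genes related to antichymotrypsin. Serpina11 is itself a little studied member. All 12 clade A names listed for the locus were found in that annotation, 11 as symbols and 1, Serpina3k, as a synonym of Serpina3c. Positions on GRCr8 cannot be carried to rn4 here, so the other regions of the window are given by position and not by gene.

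The start of Serpina11 is shown because it gives the CpG content, the substrate of the capture, at the promoter of the gene whose intron holds the region. The sequence runs from 250 bases before to 50 bases after the annotated start (RefSeq, GRCr8, chr6:128677405-128677704, minus strand), 5′ to 3′, with each CG in capitals.
Serpina11: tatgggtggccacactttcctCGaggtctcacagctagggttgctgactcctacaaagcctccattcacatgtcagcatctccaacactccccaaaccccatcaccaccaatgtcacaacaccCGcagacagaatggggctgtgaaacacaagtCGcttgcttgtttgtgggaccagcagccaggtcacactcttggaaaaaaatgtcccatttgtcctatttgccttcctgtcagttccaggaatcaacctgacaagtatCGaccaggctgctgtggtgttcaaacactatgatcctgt
It holds 4 CG, of which 3 precede the start and 1 follows it. Of 33469 rat promoters of the same length, 94.5% hold at least 1 CG, the median is 7, and 38.0% hold 4 or fewer. Promoters of 14 of the 18 genes in the run were matched, with 0 to 7 CG and a median of 2. Those of Serpina9 and Serpina12, which follow Serpina11 in the run, also hold 4. By the study's annotation the captured region lies in an intron, and no rn4 sequence was used here, so the CpG content of the region itself was not measured.

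At Serpina11, the MLP vs. C list and the MLP-F vs. C list both held a region, and the MLP vs. MLP-F list held none. The MLP vs. C region, at 128040534 to 128040999, was 466 bp long and scored 125. This put it at place 7022 of the 35998 regions of its list by score (19.5%), and at place 337 of the 1786 on chromosome 6. The MLP-F vs. C region, at 128040346 to 128041306, was 961 bp long and scored 67.5. It reached 188 bp further at the lower end and 307 bp further at the higher end, so that the whole MLP vs. C region lay inside it. Its place was 13673 of 25578 (53.5%), close to the middle of its list. In length the MLP vs. C region was among the shorter, with 18.1% of its list shorter still, and the MLP-F vs. C region among the longer, with 86.2% of its list shorter. Absence from the MLP vs. MLP-F list says only that no region passed the p cut-off there and does not show that the 2 libraries were equal.

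The strongest MLP-F vs. C signal of the window stood beside Serpina11 and had no counterpart for MLP vs. C. It lay 5.54 kb beyond the higher end of the Serpina11 region, at 128046538 to 128047129, and its score of 193 put it at place 666 of 25578 (2.6%). Another MLP-F vs. C region lay 7.93 kb before the lower end, at 128032037 to 128032603, with a score of 56.2. The 3 regions together span 15.1 kb. Over the placed chromosomes, 2.76% of the regions in this list begin a stretch of this span or less with 3 regions, a comparison chosen after the values were seen. Neither flanking region overlapped a region of the other lists, which is the more common case. Of the whole MLP-F vs. C list, 31.8% of the regions overlap an MLP vs. C region. Between the whole MLP-F vs. C and MLP vs. MLP-F lists there are 428 overlapping pairs of regions. At most 428 of the 25578 MLP-F vs. C regions therefore overlap an MLP vs. MLP-F region. The plot of the regions nearest Serpina11 shows the 3 regions.

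**Figure D1:**
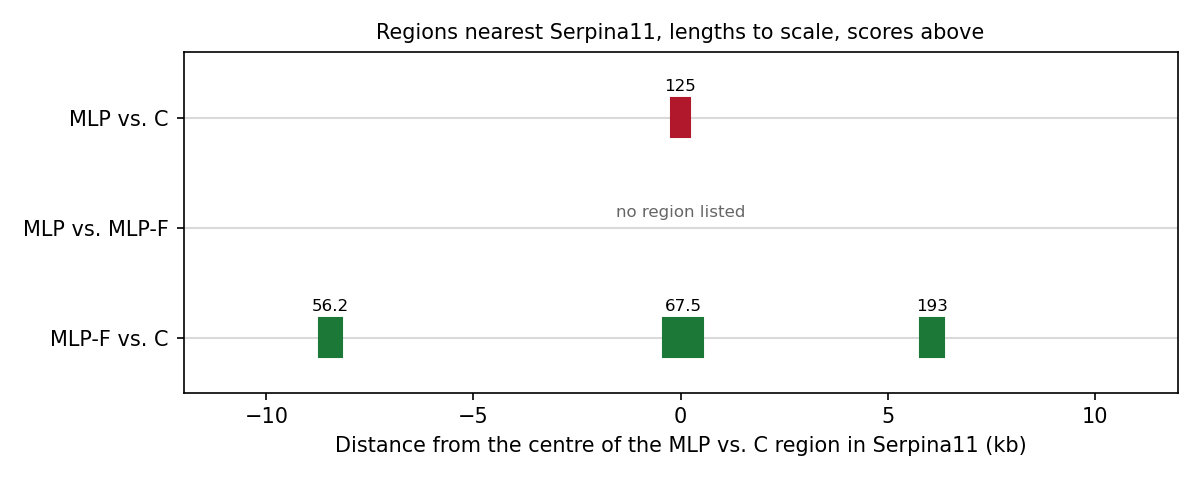
Regions within 12 kb of the Serpina11 region in each list, drawn to scale along the distance in kb from its centre, with the score (10 times −log10 p) above each box. The MLP vs. C list has 1 region here, the MLP vs. MLP-F list none and the MLP-F vs. C list 3, of which the one at the right has the highest score, 193.

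In the MLP vs. C list the Serpina11 region stood alone. The next region of that list was 257 kb away at lower coordinates, at 127783120 to 127783760 with a score of 106, and 173 kb away at higher coordinates, at 128214426 to 128215574 with a score of 108. Of the MLP vs. C regions on placed chromosomes, 3.03% have no other region of the list as near as 173 kb. In the MLP vs. MLP-F list the stretch around Serpina11 was empty for 420 kb, between 127794816 and 128214426. Gaps of that size or larger make up 2.16% of all gaps in that list, and this gap was the largest in the window. This share is by number of gaps. Long gaps hold more positions than short ones, so a larger share of positions lies in such gaps. The inner 500 kb of the window held 2 regions of the MLP vs. C list, 2 of the MLP vs. MLP-F list and 4 of the MLP-F vs. C list. In the outer parts there were 12, 11 and 4, in the same order of lists.

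**Figure D2:**
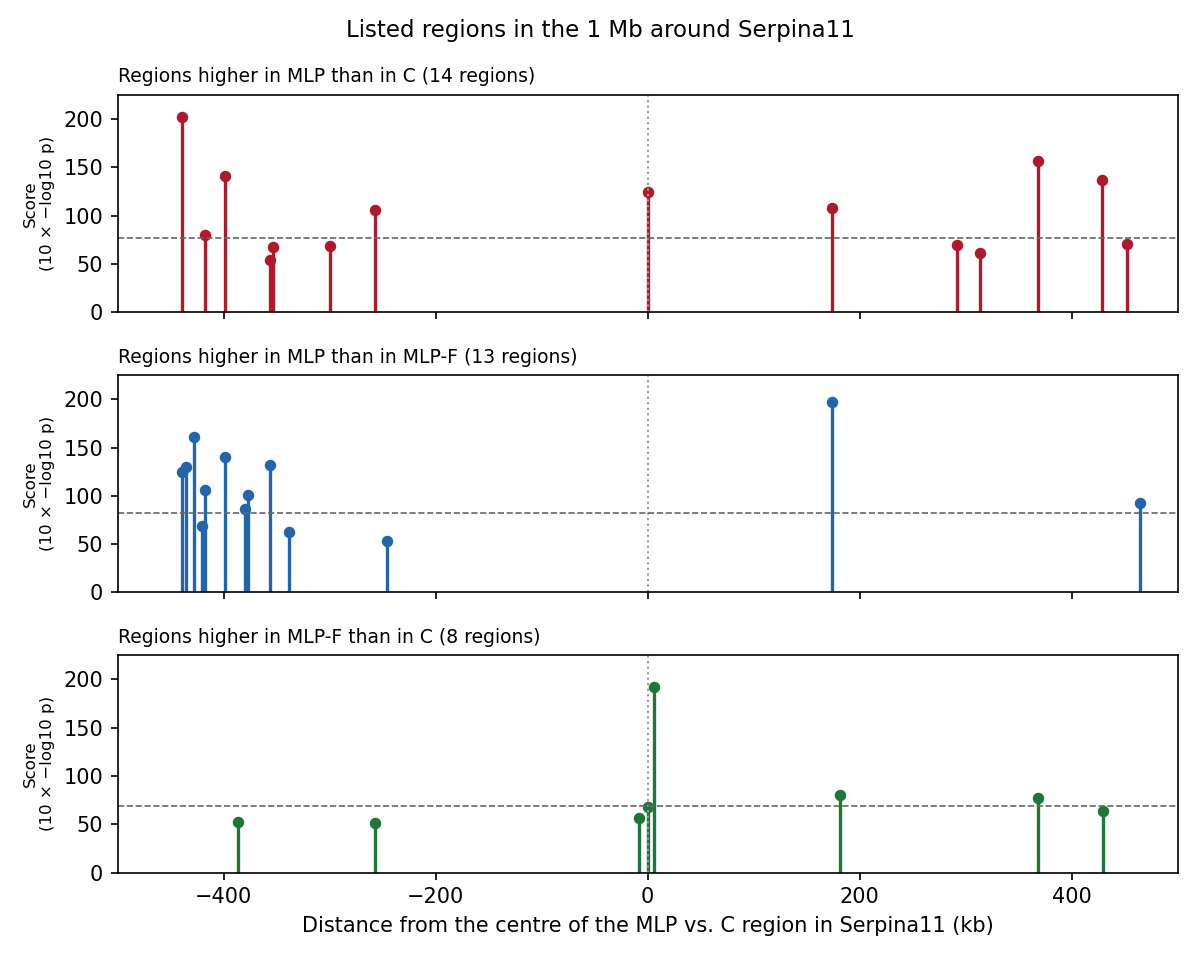
Score (10 times −log10 p) of every listed region in the window against its distance in kb from the centre of the Serpina11 region, with a panel for each list; the dashed line is the median score of the whole list and the dotted line marks Serpina11. The MLP vs. MLP-F regions crowd at the left end, where 11 of 13 lie below Serpina11, and the MLP-F vs. C list has its highest score beside Serpina11.

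At any score, the number of regions in the 1 Mb window was near that of the genome in each list. The density was 14.0 MLP vs. C regions per Mb (95% exact Poisson interval 7.65 to 23.5), against 12.9 over all placed chromosomes. It was 13.0 MLP vs. MLP-F regions per Mb (6.92 to 22.2), against 12.1, and 8 MLP-F vs. C regions per Mb (3.45 to 15.8), against 9.08. These intervals cover counting error only. The MLP vs. C count includes the Serpina11 region, on which the window was placed, and its interval makes no allowance for that choice. Counting only scores of at least 100, the density relative to the genome was 1.75 in the MLP vs. C list, against 1.09 at any score. It was 1.80 in the MLP vs. MLP-F list, against 1.07 at any score, and 0.58 in the MLP-F vs. C list, against 0.88. Each lies within the exact Poisson interval of the ratio at any score. Those intervals run 0.59 to 1.82, 0.57 to 1.83 and 0.38 to 1.74, in the same order of lists. The ratios for the lists of MLP are close to the upper limits. At scores of at least 100 the ratios rest on 7, 8 and 1 regions, and no intervals of their own are given. Lying within the intervals at any score therefore does not tell whether strong regions are more or less dense here. In consecutive tiles of 1 Mb over the placed chromosomes, the median was 11 MLP vs. C regions, 10 MLP vs. MLP-F regions and 8 MLP-F vs. C regions. As many regions as in the window, or more, were found in 39.6%, 36.1% and 51.3% of the 2710 tiles in the same order of lists.

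**Figure D3:**
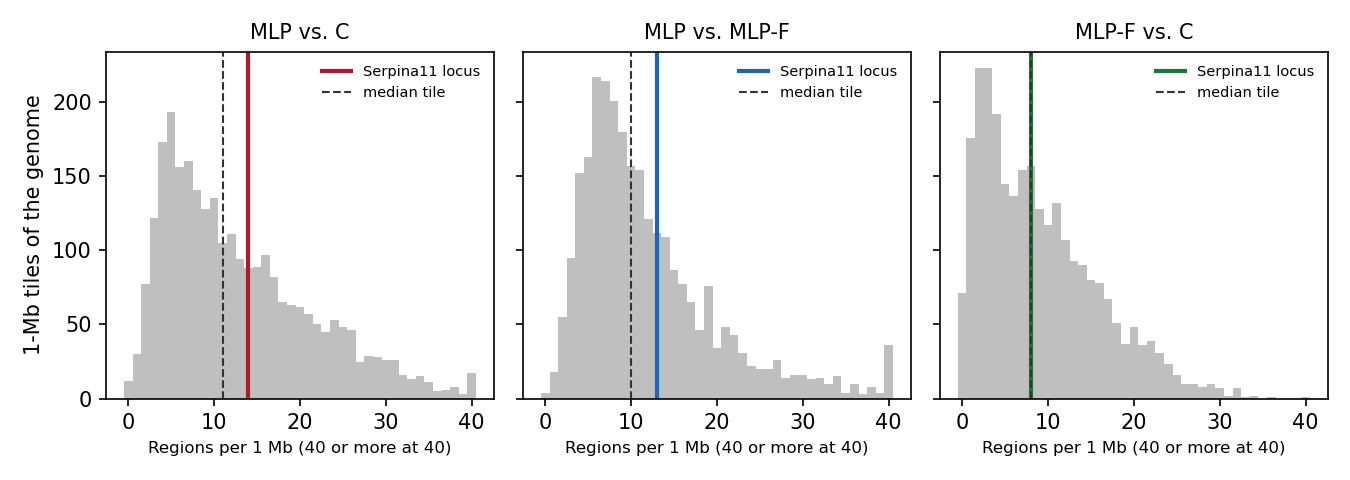
Number of consecutive 1-Mb tiles of the placed chromosomes by the number of listed regions in the tile, with a panel for each list. The coloured line is the Serpina11 window (14, 13 and 8 regions from left to right) and the dashed line the median tile (11, 10 and 8).

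Scores of MLP vs. C regions ran from 54.4 to 202.5 with a median of 93.1 in the window, against a median of 77.4 over the whole list. For MLP vs. MLP-F they ran from 52.8 to 197 with a median of 106, against 81.8 over the list. For MLP-F vs. C they ran from 51.2 to 193 with a median of 65.5, against 69.4. A score of at least 100 was reached by 7 of the 14 MLP vs. C regions (exact 95% interval of the share 23.0 to 77.0%), against 31.1% of that list, and the 7 include the Serpina11 region on which the window was placed. It was reached by 8 of the 13 MLP vs. MLP-F regions (31.6 to 86.1%), against 36.8% of that list, and by 1 of the 8 MLP-F vs. C regions (0.32 to 52.7%), against 19.1%. The shares of the whole lists lie within these intervals. The highest scores of the whole lists are 3100 in both lists of MLP and 2245 in that of MLP-F vs. C. Median lengths in the window were 746 bp for MLP vs. C, 844 bp for MLP vs. MLP-F and 678 bp for MLP-F vs. C, against 674, 727 and 657 bp over the lists.

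Regions that overlap between lists were merged, which left 26 distinct places in the window. Of these, 5 were listed for MLP against both other groups, 4 for both low protein groups against C, and 0 for all 3 comparisons, a combination found for 1.11% of the whole MLP vs. C list. A further 5 places were listed only for MLP vs. C, 8 only for MLP vs. MLP-F and 4 only for MLP-F vs. C. Each pair of lists shares a library, so such overlaps are a description of the lists and not evidence on diet. Read from the MLP vs. C list, 5 of the 14 regions overlapped an MLP vs. MLP-F region (exact 95% interval of the share 12.8 to 64.9%), against 39.4% of the whole list. An MLP-F vs. C region was overlapped by 4 of the 14 (8.39 to 58.1%), against 22.6%, and the other 5 overlapped neither, against 39.1%. Read from the other lists, 5 of the 13 MLP vs. MLP-F regions and 4 of the 8 MLP-F vs. C regions overlapped an MLP vs. C region, against 42.1% and 31.8% of their lists. No MLP vs. MLP-F region of the window overlapped an MLP-F vs. C region (0 of 13, exact 95% interval up to 24.7%), and in the whole list 1.27% do. Where an interval is given, the share of the whole list lies within it, and the intervals cover counting error only.

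Serpina11 belongs to the group of 4 places listed, at the p cut-off, for both MLP vs. C and MLP-F vs. C. At the place 257 kb before it, the score was 106 for MLP vs. C and 51.2 for MLP-F vs. C, the second of these close to the cut-off. The place at 128408884 to 128410202 scored 156 for MLP vs. C and 76.9 for MLP-F vs. C. The last, at 128469579 to 128470504, scored 137 for MLP vs. C and 63.5 for MLP-F vs. C. With 125 and 67.5 at Serpina11 itself, the MLP vs. C score was the higher at all 4 places, as it is in 59.3% of the 8175 such pairs over the whole lists. The window was placed on the MLP vs. C region at Serpina11, so the order there is not independent of that choice. The MLP library was deeper than the MLP-F library, and the part of depth in the order at the 4 places was not tested. The boundaries differed at each of the 4 places, as they do in all 8175 pairs, so this is not a property of this locus. Of the 4 MLP vs. C regions, 2 lay wholly inside the MLP-F vs. C region, against 29.7% of the pairs over the whole lists.

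The 5 places higher in MLP than in both other groups lay apart from Serpina11. Of these, 4 were at the lower end of the window. The place at 127601362 to 127602320 scored 202.5 for MLP vs. C, the highest of that list in the window, and 125 for MLP vs. MLP-F. The place at 127622938 to 127623348 scored 80.2 for MLP vs. C and 106 for MLP vs. MLP-F. The place at 127641358 to 127642161 had nearly the same score in both lists, 141 for MLP vs. C and 140 for MLP vs. MLP-F. The place at 127684316 to 127685273 was weak for MLP vs. C, with 54.4, and scored 132 for MLP vs. MLP-F. The fifth, at 128214426 to 128215574, was the nearest to Serpina11 on the higher side, with 108 for MLP vs. C and 197 for MLP vs. MLP-F, the highest MLP vs. MLP-F score in the window. The higher score was thus that for MLP vs. C at 2 of the 5 places, against 45.8% of the 14194 such pairs over the whole lists. Start and end were the same in both lists at all 5 places and in all 14194 pairs, so shared boundaries are a property of these 2 lists and not of this locus.

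**Figure D4:**
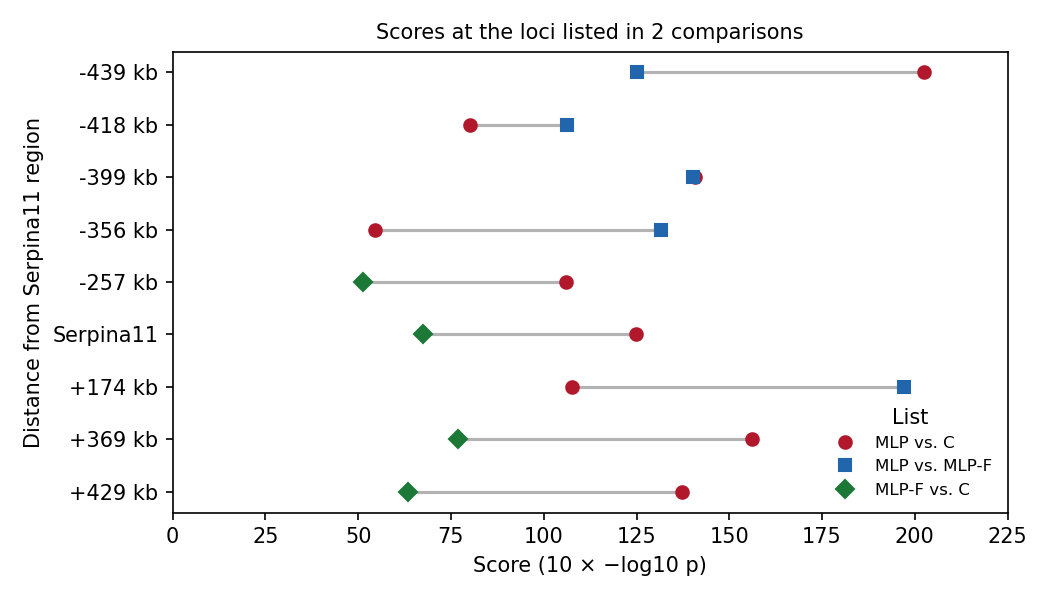
Scores (10 times −log10 p) at the 9 places of the window that are listed in 2 comparisons, ordered by distance in kb from the Serpina11 region; circles are MLP vs. C, squares MLP vs. MLP-F and diamonds MLP-F vs. C. At Serpina11 and the 3 other places shared with MLP-F vs. C, the circle lies to the right of the diamond.

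The lower end of the window also held most of the other MLP vs. MLP-F regions. Within 40.8 kb, from 127601362 to 127642161, this list has 6 regions, of which 3 are shared ones just named and 3 have no counterpart for MLP vs. C. Those without one scored 130 at 127604478 to 127605226, 161 at 127611780 to 127612738 and 69.3 at 127619397 to 127620393. The MLP vs. C list has 3 regions in this stretch and the MLP-F vs. C list 0. A stretch of this length or less with 6 regions begins at 1.15% of the MLP vs. MLP-F regions on placed chromosomes, a comparison chosen after the values were seen. Towards Serpina11 the regions listed only for MLP vs. MLP-F went on with scores of 86.2, 101, 62.3 and 52.8, the last 246 kb from the Serpina11 region. In all, 11 of the 13 MLP vs. MLP-F regions lay at lower coordinates than Serpina11 and 2 at higher ones. Of the 14 MLP vs. C regions, 7 lay below, 6 above and 1 at Serpina11, and of the 8 MLP-F vs. C regions, 3 lay below, 4 above and 1 at it. These differences in position were not tested.

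The 5 places listed only for MLP vs. C scored between 61.0 and 70.7, all below the median of their list. How often such regions fall below it over the whole list was not counted. Of the 5 places, 3 lay between 291 and 452 kb above Serpina11. The 4 places listed only for MLP-F vs. C include both neighbours of Serpina11 described above. The other 2 scored 52.0 at 127654214 to 127654901 and 80.3 at 128222441 to 128222811, which is 181 kb above Serpina11. The only MLP vs. MLP-F region in the upper part of the window beside the shared one was that at its edge, 464 kb from Serpina11, with a score of 92.2.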

How the data were processed

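The authors mapped the read pairs of the pooled MBD-seq libraries to rn4 (Bowtie) and compared the libraries in pairs with MACS. Per the labels, CASAVA was also used. Versions of these tools were not given in the sources used here. Each region in the lists that the authors deposited has a position and a score, 10 times the −log10 of its MACS p, without read counts, fold or FDR. They list gains in the library named first, and the reverse comparisons were not used here.

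Starts were converted to 1-based positions. Tied regions take the lower place by score. An overlap is 1 bp or more, which was tested on simulated intervals. The largest end in any list stood for the length of each chromosome, so unsequenced gaps lower the densities of the genome. Intervals are exact (Poisson or Clopper-Pearson, 95%). Python 3.11.15, numpy 2.4.6, pandas 2.3.3, SciPy 1.17.1 and matplotlib 3.10.9 were used.

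Regions named are, by rule, those at or within 50 kb of the Serpina11 region, the 3 highest of each list, those shared between lists and those at the window's edges. The other regions named and the counts on spacing were picked after their values had been seen. The window and the gene list were chosen with earlier results of these data known. Alternatives changed the window, the overlap rule, the score minimum, the chromosomes compared and the list sizes. RefSeq gene order and promoters are on GRCr8, another build than that of the lists, and no region was assigned a gene from them. The study's expression arrays were not analysed here.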

Additional observations from a re-analysis of the deposited data

How the results depend on the processing

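Of 49 values obtained under the alternatives, 44 stayed within the 95% interval of the value reported and 5 moved. This tally does not measure robustness, because some of the values could not move. The MLP-F vs. C list is itself the smallest list, so cutting to that size left it unchanged. An overlap of 0 of 13 cannot rise under a stricter overlap rule, a score minimum or shorter lists. Many intervals are also wide, such as 0.59 to 1.82 for the MLP vs. C density ratio. The intervals were exact Poisson for densities, order statistics for median scores and exact binomial for shares and places, so those of the places, over whole lists, are much narrower. In a window of 500 kb centred on the Serpina11 region, the density was 4 regions per Mb for MLP vs. C and 4 for MLP vs. MLP-F, against 14.0 and 13.0 in the window of 1 Mb. Windows of 2 and 5 Mb gave 15 and 20.6 for MLP vs. C, 16.5 and 19.4 for MLP vs. MLP-F, and 11 and 12.4 for MLP-F vs. C, so the density depends on the width chosen. With scores of at least 100 in both lists, 0 of 7 MLP vs. C regions overlapped an MLP-F vs. C region (0%, exact 95% interval up to 41.0%), where 28.6% did at any score. The Serpina11 region is then no longer listed for MLP-F vs. C. The density relative to the genome at that score stayed within the interval of the ratio at any score in each list. That interval does not cover the counting error of the fewer regions at that score. The other values that moved were the places of the Serpina11 region by score, at 18.9% of the chromosome 6 regions for MLP vs. C and 52.3% for MLP-F vs. C. Over the whole lists these places were 19.5% and 53.5%. A place in a fixed list is not a sampled share, so these small changes count as moves only because the binomial intervals are narrow. No paired analysis was possible because each group has 1 library and no result comes from a test. Library depth enters every score, and its part could not be measured from the lists.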
